A study of Dendrobium officinale with 6 samples.

Results

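Among the abundant leaf transcripts of Dendrobium officinale, 172 of 60597 assembled genes stayed within 20% of their mean deposited level throughout a methyl jasmonate (MeJA) experiment, with overlapping groups. They were chosen from the values themselves: a 3-control mean of 100 TPM or more, all 6 libraries within 20% of their common mean, and a MeJA range that overlapped the control range. TPM is a transcript level divided by length and brought to a sum of 1000000 in each library, so a steady TPM means a steady share of the measured transcripts. D. officinale is an orchid used in traditional medicine. The MeJA group was 3 libraries from leaves of plants 6 months old, sprayed with 100 µM MeJA in ethanol and harvested at 24 h. The control group was 3 libraries from leaves of seedlings of the same age given the ethanol solvent alone, at a harvest time that was not found in the labels, so an effect of time cannot be told apart from one of MeJA. The study looked for genes whose regulation goes with alkaloid accumulation under MeJA. Because the selection used the MeJA and control values of all 6 libraries, the steadiness of these genes is a description and was not tested. After rescaling by size factors or by quantile normalization, described below, 40 and 134 of the 172 still met these conditions.

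As background, MeJA is converted in the plant to jasmonic acid and then to its isoleucine conjugate, which binds the COI1 receptor and marks the JAZ repressors for breakdown. Transcription factors held back by JAZ proteins then act on defence and secondary metabolism genes. Transcripts that keep their level through such a treatment are sought as internal references for quantitative PCR. The deposited identifiers are those of a de novo assembly and are paired with no gene name, product or sequence in the files, so the 172 genes have no annotated function here, and leaf marker genes could not be looked up. They are called by their rank in mean level over the 6 libraries, rank 1 being the most abundant, and 4 of them also by identifier. In leaf RNA, fewer cells of a type and less RNA per cell cannot be told apart.

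The 172 genes were a minority of the abundant transcripts. Of 1463 genes at 100 TPM or more in controls, 544 (37.2%) stayed within 20% of their mean in all libraries and 283 (19.3%) had overlapping groups. Both conditions held for 172 (11.8%). The remaining 372 of the 544 varied little but had separate groups, and 318 of them lay lower under MeJA and 54 higher. Groups were separate in 1180 of the 1463 abundant genes (80.7%), against 39.7% of the 55498 genes that averaged 1 TPM or more. In a limma fit of log2(TPM + 1) over all 55498 genes, 0 of the 172 were called at an adjusted p under 0.05, and 0 had an unadjusted p under 0.05, beside 18.7% of all genes called. The overlap of the groups, which the selection required, largely fixes that count. Without MeJA library 2 the fit called 4 of the 172, 1 higher and 3 lower, beside 21.5% of all genes. Without MeJA library 3 it called 2, both lower, beside 13.5%.

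**Figure D1:**
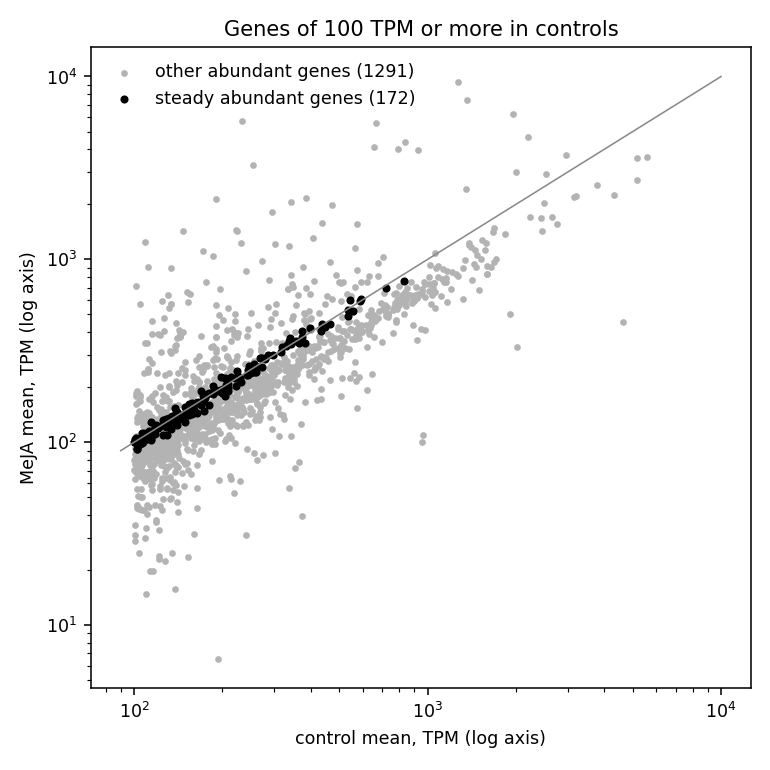
Mean TPM in MeJA libraries (vertical, log axis) against mean TPM in control libraries (horizontal, log axis) for the 1463 genes of at least 100 TPM in controls, with the 172 steady genes in black, the other 1291 in grey and a line at equal means. The steady genes lie along the line below 1000 TPM, while more of the grey points lie below it than above.

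The steady genes were high in level, as the selection required, and were missing from the top of the range. Their mean over the 6 libraries ran from 96.9 to 799 TPM with a median of 161 TPM, and 3 of them averaged under 100 TPM, with control means above it and MeJA means below it. Their places among all 60597 genes ran from 105 to 1525. The first 3 by level show the range of behaviour at the top. TRINITY_DN15964_c0_g2, at rank 1, had 768, 803 and 724 TPM in MeJA libraries 1, 2 and 3, against 797, 848 and 852 TPM in control libraries 1, 2 and 3. Its groups touched only where MeJA library 2 exceeded control library 1. The gene at rank 2 had 680.4, 751 and 654 TPM under MeJA, against 718, 763 and 679 TPM in controls, so that library 2 was the highest in both groups. The gene at rank 3 had 629.8, 611 and 591 TPM under MeJA, against 582, 602 and 589 TPM in controls, and only MeJA library 3 fell inside the control range. Means under MeJA were 765 ± 40, 695 ± 50 and 611 ± 19 TPM, against 832 ± 31, 720.2 ± 42 and 591 ± 10 TPM in controls, for ranks 1, 2 and 3 in that order (SD, n = 3 each).

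The steadiest gene lay in the lower part of the set in level. TRINITY_DN11918_c6_g1, at rank 125, had 120.4, 122 and 122 TPM under MeJA, against 121, 122 and 121 TPM in controls. All its values lay within 0.82% of their mean, with a coefficient of variation (CV, the SD over the mean) of 0.67%. Its log2 fold change, MeJA over control on the log2(TPM + 1) scale, was 0.00, with a 95% limma interval of -0.11 to 0.12. The interval is wider than the spread of its own libraries because limma shares the estimate of spread across genes. The gene at rank 67 had 189.8, 191 and 190.3 TPM under MeJA, against 188.5, 196 and 195 TPM in controls, with a CV of 1.59%. The gene at rank 78 had 174, 171 and 178 TPM under MeJA, against 179, 174 and 171 TPM in controls, with a CV of 1.97%. In both of these genes the group means differed by less than the larger SD of the groups.

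By log2 fold change, the ends of the set were genes whose groups leaned apart while still overlapping. The highest CV, 14.7%, was at rank 129, with means of 110 TPM under MeJA and 129 TPM in controls. At rank 133 the CV was 12.2% with means of 115.3 TPM under MeJA and 114.9 TPM in controls. A large CV thus did not require a difference of the means. TRINITY_DN15870_c0_g1, at rank 56, had the highest log2 fold change of the 172, 0.21 ± 0.12 (SE). Its values were 237, 200.4 and 248 TPM under MeJA, against 188, 180.1 and 226 TPM in controls. MeJA libraries 1 and 3 lay above all controls, and MeJA library 2 lay below control library 3. TRINITY_DN20481_c1_g2, at rank 87, had the lowest log2 fold change, -0.23 ± 0.10 (SE). Its values were 145, 129.95 and 168 TPM under MeJA, against 175, 167 and 176 TPM in controls. Here MeJA library 3 alone reached the control range, just above control library 2. It is 1 of the 2 genes called lower once MeJA library 3 was left out, at -0.33 on the log2 scale, where both remaining MeJA libraries lay below all controls.

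**Figure D2:**
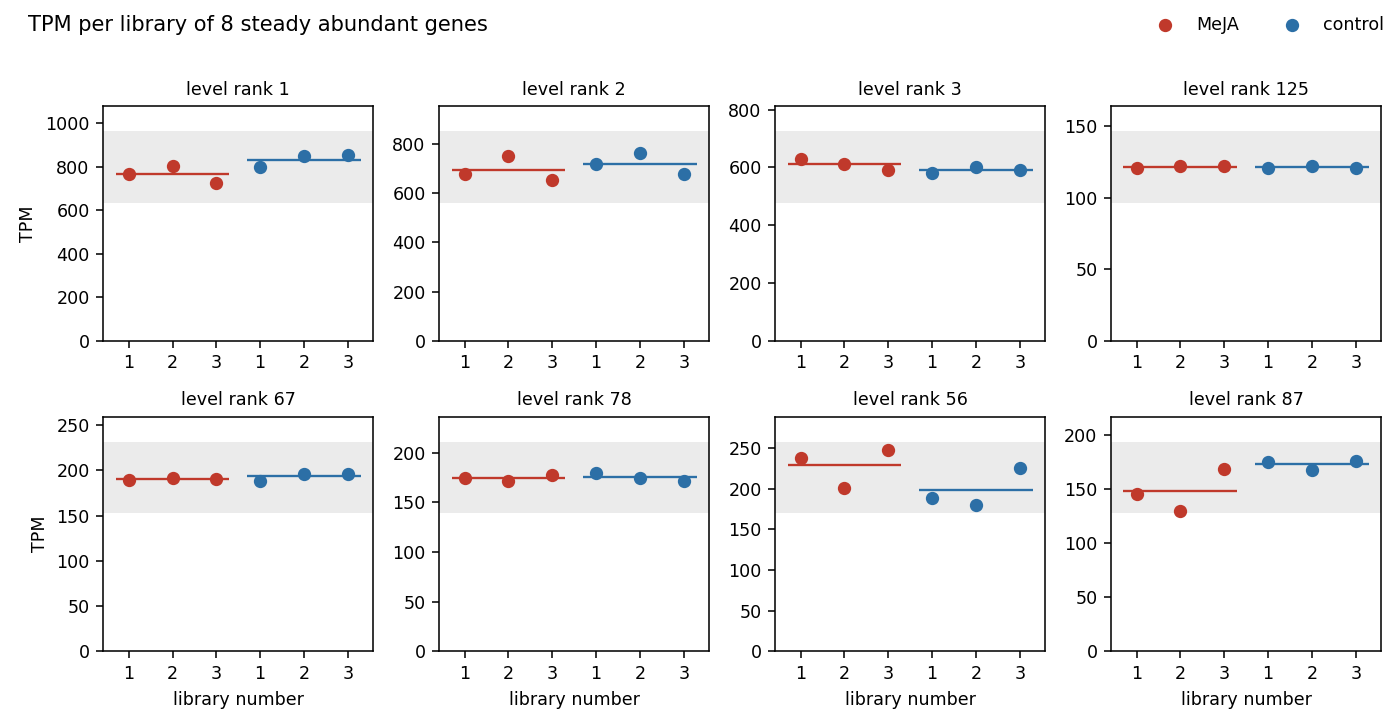
TPM (vertical, from 0) in each MeJA library (red) and control library (blue) of 8 steady genes, by library number (horizontal), with group means as lines and the 20% band around the mean of all libraries in grey. Ranks 125, 67 and 78 are nearly flat at CVs of 0.67% to 1.97%. At ranks 56 and 87 the groups overlap only through 1 MeJA and 1 control library.

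Over the whole set, the group means differed by little. The difference in mean, MeJA minus control, ran from -14.9% to 15.4% of the control mean, with a median of -0.65%. MeJA means were the higher ones in 78 genes and the lower ones in 94. The means differed by 5% or less in 101 genes and by 10% or less in 155 genes. In 113 genes the difference was smaller than the pooled SD within groups. The median CV over the 6 libraries was 6.21%, with quartiles of 4.41% and 8.66%. All libraries lay within 10% of the mean in 87 genes and within 5% in 17 genes, whose means ran from 105 to 601 TPM. Limma intervals at the 95% level had a median half-width of 0.18 on the log2 scale. For 171 of the 172 genes they lay inside -0.5 to 0.5, with 3 libraries a group. The selection capped both the spread and the difference of the means, so these intervals do not measure the precision for other genes.

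At each limit of the selection, genes just inside and just outside differed little in the quantity that the limit was set on. The member closest to the 20% limit, at 19.9%, had 98.4, 106 and 126 TPM under MeJA, against 144, 134 and 111 TPM in controls. The next member, also at 19.9%, had 171, 209.9 and 154 TPM under MeJA, against 172, 166 and 178 TPM in controls. The value farthest from the mean was control library 1 in the first and MeJA library 2 in the second. The nearest genes outside had largest deviations of 20.2% and 20.4%, and averaged 126 and 1306 TPM. The second of these had 1225, 1040.1 and 1416 TPM under MeJA, against 1401, 1262 and 1493 TPM in controls. At the level limit, the lowest control means among the members were 100.2 and 101 TPM, and the highest outside were 99.9 and 99.7 TPM.

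The share of steady genes fell with level above 10 TPM. Leaving the level limit aside, 21.7% of the 10942 genes averaging 10 to 50 TPM met both other conditions. The share was 17.3% at 50 to 100 TPM, 14.97% at 100 to 150 TPM, 14.5% at 150 to 200 TPM, 10.6% at 200 to 500 TPM and 4.73% at 500 to 1000 TPM. None of the 70 genes of at least 1000 TPM met them, although 8 stayed within 20% and 5 had overlapping groups. The one among them that varied least stayed within 3.30% of its mean, at 1073, 1091 and 1085 TPM under MeJA, against 1068, 1034 and 1067 TPM in controls. All its MeJA values lay above all its controls, although the gap between the groups was smaller than the range within either, and so it was not selected. Over the same classes the share with overlapping groups went down to 7.14% at 1000 TPM or more, against 40.6% at 10 to 50 TPM. Among genes of 1 to 10 TPM, 2.80% were steady, with 68.5% overlapping and only 3.98% within 20%. Within the set itself the median CV was 5.82% in the 73 members at 100 to 150 TPM, 7.32% in the 36 at 150 to 200 TPM, 6.17% in the 52 at 200 to 500 TPM and 6.80% in the 8 at 500 to 1000 TPM. In the 3 members at 50 to 100 TPM it was 8.67%. These medians showed no steady trend with level, and the 20% limit caps the CV in every class.

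**Figure D3:**
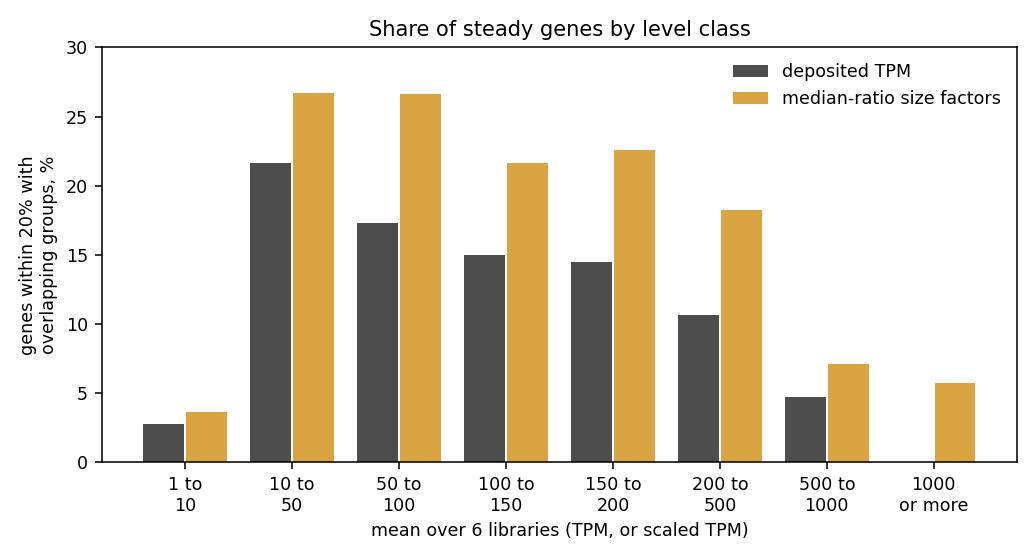
Percent of genes within 20% of their mean and with overlapping groups (vertical) by class of mean level over the 6 libraries (horizontal), for deposited TPM (dark) and after scaling by median-ratio size factors (yellow). On the deposited and the scaled values the share is highest at 10 to 50 TPM, at 21.7% and 26.7%, and low at both ends, at 2.80% and 3.66% for 1 to 10 TPM and at 0% and 5.71% for 1000 TPM or more.

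The libraries were not alike in how far they strayed. The median deviation of the 172 genes from their 6-library mean was -1.15%, -0.11% and -0.10% in MeJA libraries 1, 2 and 3, and 0.25%, 1.66% and -0.15% in control libraries 1, 2 and 3. The median size of the deviation, whatever its sign, was 3.14%, 4.41% and 5.53% in MeJA libraries 1, 2 and 3, against 2.82%, 4.33% and 4.13% in control libraries 1, 2 and 3. Library 1 was thus the closest to the mean in both groups. MeJA library 3 held the lowest of the 6 values in 52 genes and the highest in 41, and MeJA library 1 did so in 18 and 12. Library 1 held the middle value of its group in 118 of the 172 genes under MeJA (68.6%) and in 99 in controls (57.6%). The same shares over the other 1291 abundant genes were 82.0% under MeJA and 63.2% in controls. Independent libraries of 1 kind would hold the middle value about equally often. Independence of the libraries within a group, which limma assumes, was not tested. On libraries 2 and 3 alone limma called 129 genes, against 10381 on all 6, and that fit also had fewer libraries. When only libraries 2 and 3 were used, 158 genes met the rule, of which 152 were among the 172 (88.4% of the 172 and 96.2% of the 158).

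Spread within groups was somewhat larger under MeJA. The median CV within a group was 5.73% among MeJA libraries, against 4.73% among controls, and 100 of the 172 genes (58.1%) were more spread under MeJA. Among the other 1291 abundant genes the medians were 8.51% under MeJA and 4.30% in controls, and 933 (72.3%) were more spread under MeJA. The 20% limit caps the spread of the steady genes in both groups alike, so the values of the 2 sets are given side by side and their difference was not tested. The genes at ranks 4, 6 and 16 are given as examples chosen after their values were seen. At rank 6 the spread was the smaller one under MeJA, with 515, 532 and 513 TPM under MeJA, against 562, 484 and 630.3 TPM in controls. At rank 4 the same was seen, with 597, 595 and 587 TPM under MeJA, against 573, 557 and 639 TPM in controls. In both, control library 3 was the highest of the 6 and control library 2 the lowest.

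The 172 genes together made up 3.48%, 3.50% and 3.48% of all TPM in MeJA libraries 1, 2 and 3, against 3.52%, 3.53% and 3.51% in control libraries 1, 2 and 3. The means were 3.49% ± 0.01 under MeJA and 3.52% ± 0.01 in controls (SD, n = 3 each). Although each gene's groups overlap, the sums do not, with the highest MeJA sum just under the lowest control sum. All 1463 abundant genes made up 47.8% ± 2.1 of all TPM under MeJA and 49.1% ± 0.6 in controls. The steady genes' sum is bound by the selection, so its small spread is no separate finding.

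Whether these genes count as steady depended on the scale. The median log2 fold change over all 55498 genes was -0.17 in deposited TPM, while the median of the 172 was -0.01. A gene with an unchanged TPM was therefore higher under MeJA relative to the typical gene. Median-ratio size factors, which bring the typical gene to the same level in each library, were 0.931, 0.997 and 0.863 for MeJA libraries 1, 2 and 3, against 1.07, 1.07 and 1.09 for control libraries 1, 2 and 3. They moved the median of all genes to -0.01 and that of the 172 to 0.20, and 170 of the 172 then had a positive log2 fold change. On that scale 89 of the 172 lay wholly above the controls, as did 18.3% of all genes tested, and 0 lay wholly below. Each MeJA factor was below each control factor, so genes chosen as flat in TPM moved up by construction. The counts of the 172 on this scale describe that shift and are no separate result on MeJA. Limma called 10 of the 172 higher there and 0 lower, beside 8.09% of all genes called higher. The steadiest gene, TRINITY_DN11918_c6_g1, had scaled values of 129, 123 and 141 under MeJA, against 113, 115 and 111 in controls, with separate groups.

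On the size-factor scale the same rule selected 268 genes, of which 40 were among the 172 (23.3% of the 172 and 14.9% of the 268). None of the 17 genes within 5% in deposited TPM was among those 40, which the shift by the factors largely fixes. Of the 268, 188 had been within 20% but wholly lower under MeJA in deposited TPM. The main limma fit had called 91 of the 268, beside 18.7% of all genes and 62.8% of the 1463 abundant genes. Quantile normalization, which gives all libraries one distribution, selected 170 genes, 134 of them among the 172 (77.9% of the 172 and 78.8% of the 170). All 3 scales selected 27 genes in common, 15.7% of the 172. One of the 40 steady on both the deposited and the size-factor scale is the gene at rank 16. It had 346, 367 and 329 TPM under MeJA, against 384, 409 and 355 TPM in controls, and scaled values of 372, 368 and 382 under MeJA, against 358, 384 and 325 in controls. Its MeJA values lay inside or below the control range in TPM and inside it once scaled. The 40 genes had a median level of 155 TPM, and median CVs of 7.35% in deposited TPM and 9.24% once scaled.

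**Figure D4:**
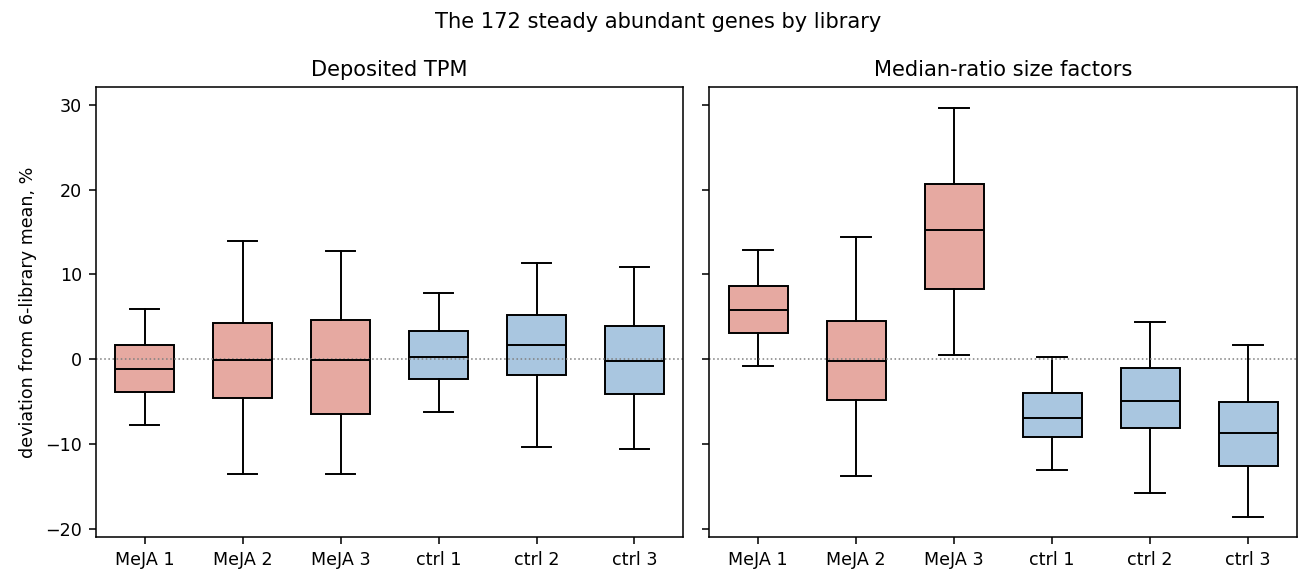
Deviation of the 172 steady genes from their 6-library mean in percent (vertical) in each MeJA library (red) and control library (blue), in deposited TPM (left) and after median-ratio size factors (right). Boxes show the quartiles and median, and whiskers the 5th and 95th percentiles. In TPM the medians lie between -1.15% and 1.66%, and once scaled they run from -8.71% in control library 3 to 15.3% in MeJA library 3.

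The identifiers carry a property the selection did not use: the assembly component, a group of genes that share part of a sequence graph. The 172 genes lay in 169 components, 3 of which held a pair of them, and 35 of the components held no other gene. In 158 components the most abundant gene was one of the 172, which the level limit of the selection largely fixes. Of the other genes in these components, 19 reached 100 TPM in controls. The components held 429 other genes, mostly low, with a median of 2.85 TPM over the 395 tested. Of those 395, 25 were called higher (6.33%) and 35 lower (8.86%), in all 15.2%, beside 6.15% higher, 12.6% lower and 18.7% in all over the whole table. Other genes in the components of the other abundant genes were called at 18.0% of 2578 tested. Shares this close to the background give no result about the neighbours of steady genes. The share depended on which library was left out. It was 4.91% beside 8.1% of all genes without MeJA library 1, 14.4% beside 21.5% without MeJA library 2 and 12.2% beside 13.5% without MeJA library 3. It was 5.60% beside 7.81% without control library 1, 8.03% beside 11% without control library 2 and 8.48% beside 10.3% without control library 3.

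Of the 134 components that held other genes, 50 (37.3%) held at least 1 that was called, close to the 39.0% of 880 such components of the other abundant genes. A called higher gene was found in 22 components, a called lower gene in 32, and both in 4. The examples that follow were chosen after their values were seen, for the size of the change and the level of the changed gene. The gene at rank 36 had 270.3, 249 and 267 TPM under MeJA, against 258, 249.7 and 232 TPM in controls. Its neighbour in the component had 719.7, 600.5 and 825 TPM under MeJA, against 100.1, 124 and 79.0 TPM in controls, a difference of 2.82 ± 0.19 on the log2 scale (SE, adjusted p = 0.000549 by limma, higher in 3 of 3 libraries). The steady gene was the more abundant of the pair in controls and the less abundant under MeJA.

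The gene at rank 43 had 244, 228 and 269.9 TPM under MeJA, against 237, 229.9 and 267 TPM in controls, with nearly the same 3 values in both groups. A gene of the same component had 67.9, 99.4 and 50.4 TPM under MeJA, against 354, 346 and 357 TPM in controls, a difference of -2.32 ± 0.22 on the log2 scale (SE, adjusted p = 0.00186 by limma, lower in 3 of 3 libraries). At rank 145 the steady gene had 106, 125 and 101 TPM under MeJA, against 107, 109.5 and 110.3 TPM in controls. Its neighbour had 230.3, 208 and 240.3 TPM under MeJA, against 49.3, 51.7 and 44.3 TPM in controls, a difference of 2.20 ± 0.08 on the log2 scale (SE, adjusted p = 0.000165 by limma, higher in 3 of 3 libraries). When libraries 2 and 3 of each group were fitted without library 1, the neighbours of ranks 36 and 43 were no longer called (limma adjusted p of 0.0572 and 0.0835, at 2.82 and -2.30), while that of rank 145 was (adjusted p = 0.0453). Over all alternatives the 3 adjusted p values ran from 0.00032 to 0.0572, from 0.000906 to 0.0835 and from 0.000101 to 0.0453. Genes of 1 component can share reads, and how the authors divided such reads is not stated, so these levels are uncertain where sequences are alike.

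Levels are given for the 3 components with a pair of steady genes. Both genes of a pair had to pass the level limit, and the set had a median of 161 TPM. The selection alone brings genes near the limit to similar levels, so closeness within a pair gives no result. In the first, the genes at ranks 119 and 147 averaged 126 and 109 TPM over the 6 libraries. In the second, those at ranks 166 and 171 averaged 102 and 97.1 TPM. In the third, those at ranks 11 and 98 averaged 437 and 147 TPM, and in both of them MeJA library 2 was the lowest of the 6 libraries. The lowest library differed within the other pairs. It was MeJA library 1 at rank 119 and control library 3 at rank 147. It was MeJA library 3 at rank 166 and MeJA library 2 at rank 171.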

How the data were processed

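Leaf RNA libraries, 3 from MeJA-treated and 3 from control plants, were grouped by the titles in the labels. For each library the authors deposited 1 value per assembled gene. The unit was read as TPM, since each library summed to 1000000 within rounding; no header or label names it. Identifiers have the form that Trinity writes, and how reads were assembled, quantified, filtered and annotated is not given in the sources used. TPM keeps no read depth, so depth is unknown and no counting interval is given. The labels do not tie libraries to plants, so p-values cover only the spread between these libraries, which may be technical.

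The rule for the 172 genes was applied to deposited TPM without rescaling. The members, the rule for named genes (the 3 highest in level, the 3 with the smallest CV, the extremes of log2 fold change and those at the limits) and the tests were chosen with earlier results of these data known. Log2(TPM + 1) of genes averaging 1 TPM or more was fitted with limma 3.58.1 (R 4.3.3), with group as the one term and a trend of the prior variance with level. Calls were two-sided, at p under 0.05 after Benjamini-Hochberg adjustment. Size factors were the median ratio to the geometric mean over genes above 0 in every library. The fit was run on simulated libraries that were independent, and the rule on made-up genes of known membership. These runs checked the code and did not test whether the assumptions of limma hold for these libraries. Alternatives were other scalings, limits, filters, a pseudocount of 0.1, a block on the replicate number in the titles and each library left out.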

Additional observations from a re-analysis of the deposited data

How the results depend on the processing

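The number of steady genes, 172, became 268 under median-ratio size factors, 87 at a tolerance of 10%, 488 and 63 with a control mean of at least 50 and 200 TPM, and 544 without the overlap condition. It stayed within 1.5 times under quantile normalization (170), at tolerances of 15%, 25% and 30% (141, 201 and 219), with a 6-library mean of 100 TPM (171) and on libraries 2 and 3 alone (158). Leaving out 1 library gave 143 to 170, and 56 of the 172 (32.6%) met the rule each time. Under size factors the median log2 fold change of the 172 was 0.20, their largest median deviation in a library was 15.3% and 10 were called. Their scaled sum, taken over the unscaled library total, was 0.490 percentage points higher under MeJA. That value restates the size factors, since dividing a library by its factor leaves the genes' share of its own total unchanged. In TPM the difference in share was -0.0325, and -0.0391 to -0.0266 without 1 library. Without 1 library 0 to 4 were called, and the median log2 fold change was -0.03 to -0.01. Calls over all genes were 10381 (3415 higher, 6966 lower). Lower calls were 3733 under size factors and 4571 without the intensity trend. Without 1 library there were 4300 to 11820 calls, 1681 to 3539 higher and 2471 to 8281 lower, and on libraries 2 and 3 alone, a setting chosen after seeing the data, 129 (109 higher, 20 lower). With a replicate block on the number in the titles, calls came to 5748 (2175 higher, 3573 lower), with 0 of the 172. For numbers 1, 2 and 3 the correlation of the 2 libraries' deviations from their group means was 0.02, -0.01 and -0.01, and 2 of 6 libraries correlated best with their own number. The share of called genes among the other genes of the components was 37.4% at a minimum mean of 5 TPM (42.7% of all genes) and 4.91% to 14.4% without 1 library. Causes were not tested. Depth is unknown.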
